A study of Homo sapiens with 12 samples.

Results

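The Z-disc is the plate at each end of the sarcomere in which actin filaments of neighbouring sarcomeres are crosslinked, and it also carries proteins that sense and report stretch. Here 10 genes of its structural and stretch-sensing proteins were followed, ACTN2, FLNC, LDB3, NEXN, MYPN, MYOZ2, TCAP, CSRP3, ANKRD1 and DES. They were chosen by gene symbol, and each symbol matched 1 row, so they are 10 of the 61806 rows of the expression table. All 10 passed the filter on low counts that left 19505 genes for testing.

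In the heart these proteins form a layered structure. The alpha-actinin encoded by ACTN2 crosslinks actin, and LDB3 (cypher/ZASP), MYOZ2 (calsarcin-1), MYPN (myopalladin) and NEXN (nexilin) dock on alpha-actinin or actin. TCAP (telethonin) caps the end of titin, CSRP3 (muscle LIM protein) and ANKRD1 (cardiac ankyrin repeat protein) link the sarcomere to gene expression in stretched muscle, and desmin filaments from DES tie neighbouring Z-discs to each other and to the membrane. Inherited changes in most of these genes are known in cardiomyopathy.

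The libraries came from H1, a human embryonic stem cell line, taken through mesendoderm with CHIR99021, an activator of WNT signalling, and then toward cardiomyocytes. NP-IWP2 cells stayed in the same wells and received IWP2, an inhibitor of WNT secretion, between Day 2 and Day 4. In P-DF the cells were instead taken off the plate and reseeded on Day 2, then left in the basal DF medium without IWP2. P-IWP2 combined reseeding on Day 2 with IWP2. By the study's account, Y27632, an inhibitor of ROCK kinases that helps detached cells survive, went with passaging in its later differentiations, so that reseeding and Y27632 cannot be told apart here. Each treatment was sampled on Day 12 and Day 16 with 2 bulk RNA-seq libraries per group, 12 in all, every one of them wild-type H1 cells that had been exposed to CHIR99021. All results therefore come from a single line. The labels do not say that the libraries of a group were separate cultures, so p-values measure the spread between these libraries, which may be technical.

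Total counts ran from 14885589 to 19176239 per library, with a median of 16452289, and the members' counts ran from 122 for TCAP to 76398 for ANKRD1 in a single library. The libraries of each group are named by the number in their labels, 1 and 2 for NP-IWP2, 3 and 4 for P-DF, 5 and 6 for P-IWP2. Replicate 5 of Day 12 P-IWP2 stood apart. Over 19505 genes, its log2 CPM (counts scaled to the library size after TMM adjustment) correlated with replicate 6 at r = 0.917, against 0.985 to 0.991 for the other pairs of replicates. Its correlation with the mean of Day 12 P-DF was 0.918, whereas that of replicate 6 was 0.991. Of the 10 members, 9 were higher in replicate 6 than in replicate 5, from 1.07 times for FLNC to 4.56 times for CSRP3, and DES was lower, at 0.371 times. Because all 12 libraries share one estimate of the spread, the difference between replicates 5 and 6 bears on every test. Counts of called genes are given with and without replicate 5. Leaving out replicate 6 in its place changed the calls nearly alike wherever neither of these libraries was compared. With either left out, Day 12 P-IWP2 has 1 library, which is then assumed to vary like the other groups.

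Passaged and static culture were compared first on Day 16. On that day all 10 genes had a positive log2 fold change in both P-DF and P-IWP2 against NP-IWP2, and 9 of 10 for P-DF and 10 of 10 for P-IWP2 had both passaged libraries above both static ones in FPKM. Of all 19505 genes, 18.8% and 16.2% did. A gene was called when its adjusted p was under 0.05 in the edgeR quasi-likelihood test over all 19505 genes. For P-DF, 2 members were called, ACTN2 and MYPN, both higher, where 15.3% of all genes tested were called in either direction. For P-IWP2, 6 members were called, ACTN2, FLNC, MYPN, MYOZ2, CSRP3 and DES, all of them higher, against 17.1% of all genes. The median log2 fold change of the 10 was 1.36 for P-DF and 1.76 for P-IWP2, beside -0.02 and -0.03 over all genes tested. The 2 comparisons share their NP-IWP2 libraries.

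Leaving out replicate 5 of Day 12 P-IWP2, which belongs to neither Day 16 comparison, left the medians at 1.36 and 1.76. It brought the called members to 9 for P-DF, all but ANKRD1, where 34.1% of all genes were then called, and to 10 for P-IWP2, where 36.4% were. On Day 16 the members together took 0.514% ± 0.165 (SD, n = 2) of all counts for NP-IWP2, 0.981% ± 0.110 for P-DF and 1.29% ± 0.309 for P-IWP2. In bulk RNA, more cells of a type and more RNA per cell cannot be told apart.

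**Figure D1:**
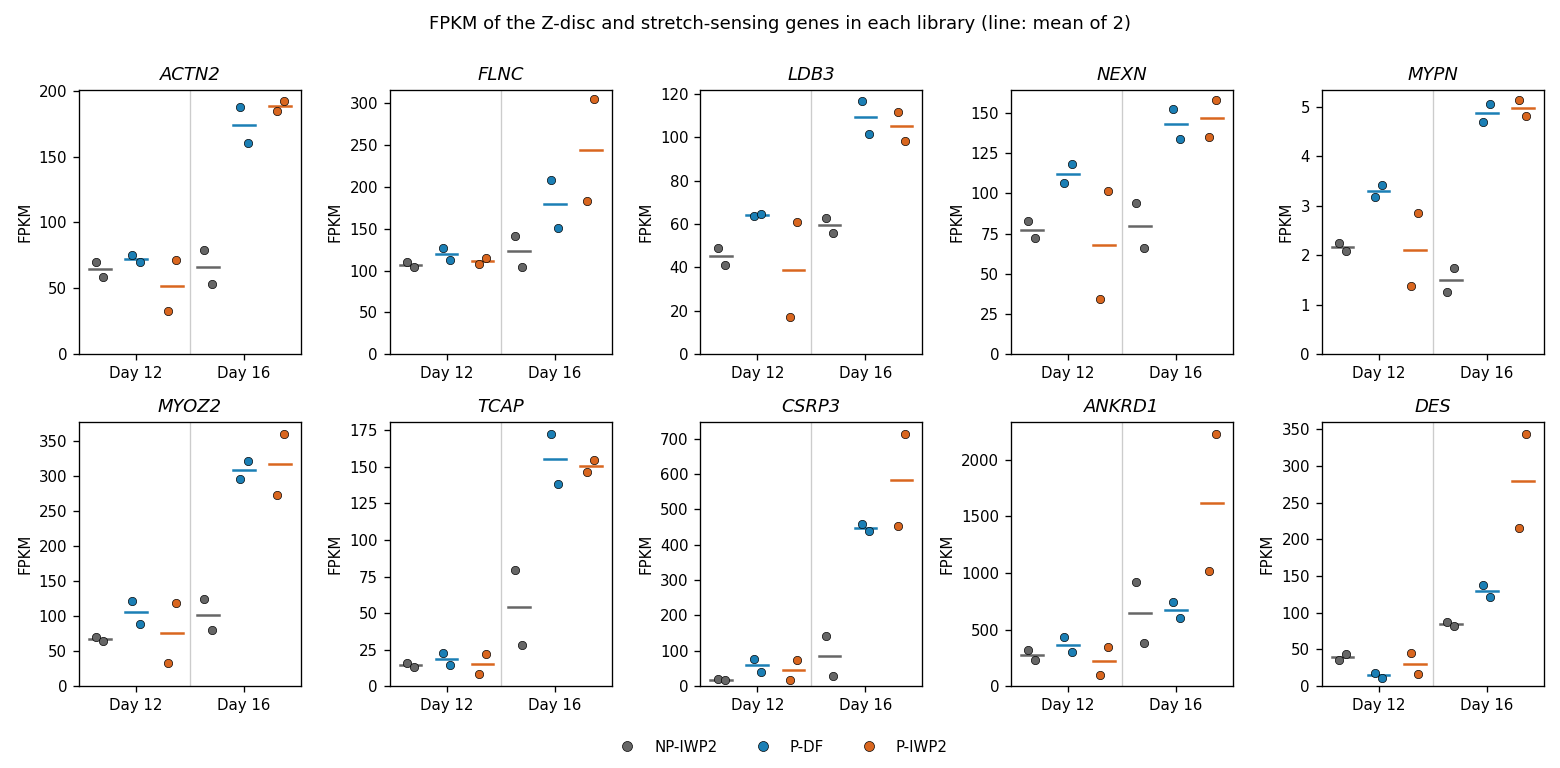
FPKM (counts scaled to exon length and library total) of each gene on the vertical axis by day, 1 panel per gene, with a point per library coloured by treatment and a line at the mean of the 2 libraries. On Day 16 both passaged groups lie above NP-IWP2 in 9 panels, the exception being ANKRD1, whose P-DF values of 743 and 605 fall between the NP-IWP2 values of 920 and 380.

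**Figure D2:**
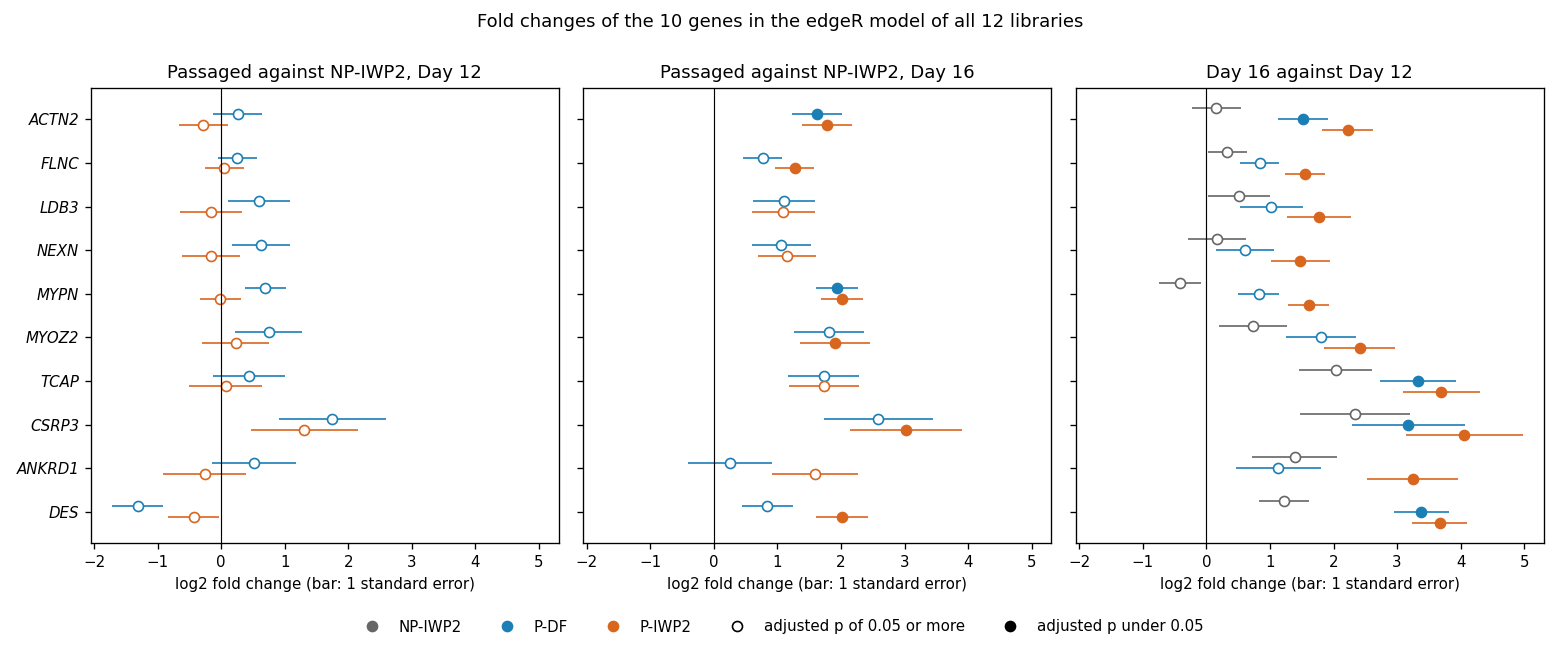
Log2 fold change on the horizontal axis for the 10 genes, with bars of 1 standard error, for passaged against static culture on Day 12 and Day 16 and for Day 16 against Day 12 in each treatment. Filled points mark an adjusted p under 0.05, of which there are 8 in the Day 16 panel and 14 in the panel comparing the days.

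Promoters of the members were examined for the letters of known binding motifs. RefSeq promoter windows of 300 bases on GRCh38.p14, from 250 bases before to 50 after an annotated start, were found for 7 of the 10 genes, with 2 windows for LDB3. The core CATTCC, bound by TEAD factors, which act with the tension-responsive coactivator YAP, was searched on both strands. It was in 14.0% of 35116 promoters and in those of ANKRD1, FLNC, MYPN and NEXN. These 4 are shown because they differ in their response, ANKRD1 overlapping static culture in P-DF while MYPN was called in both passaged groups. Capitals mark CATTCC or, in copies that lie on the opposite strand, its reverse complement GGAATG. The windows are ANKRD1 at chr10:90921038-90921337 on the minus strand, and on the plus strand MYPN at chr10:68109238-68109537, FLNC at chr7:128830156-128830455 and NEXN at chr1:77888374-77888673. The MYPN start lies 21591 bases inside the gene model of the expression table.
ANKRD1: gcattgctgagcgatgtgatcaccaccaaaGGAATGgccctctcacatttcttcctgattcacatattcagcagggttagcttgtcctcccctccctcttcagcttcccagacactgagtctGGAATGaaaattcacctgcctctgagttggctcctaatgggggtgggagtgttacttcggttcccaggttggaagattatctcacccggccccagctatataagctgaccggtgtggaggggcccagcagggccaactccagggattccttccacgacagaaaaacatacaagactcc
MYPN: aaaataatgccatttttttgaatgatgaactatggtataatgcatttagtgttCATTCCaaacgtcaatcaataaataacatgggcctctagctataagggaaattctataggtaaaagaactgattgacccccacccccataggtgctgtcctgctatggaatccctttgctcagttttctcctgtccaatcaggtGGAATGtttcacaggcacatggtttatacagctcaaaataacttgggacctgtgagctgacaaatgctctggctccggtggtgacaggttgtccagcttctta
FLNC: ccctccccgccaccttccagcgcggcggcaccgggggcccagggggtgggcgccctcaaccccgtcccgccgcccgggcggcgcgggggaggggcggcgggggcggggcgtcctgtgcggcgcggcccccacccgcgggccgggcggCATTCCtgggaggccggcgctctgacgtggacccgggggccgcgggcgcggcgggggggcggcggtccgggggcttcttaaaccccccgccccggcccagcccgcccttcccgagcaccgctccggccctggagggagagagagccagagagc
NEXN: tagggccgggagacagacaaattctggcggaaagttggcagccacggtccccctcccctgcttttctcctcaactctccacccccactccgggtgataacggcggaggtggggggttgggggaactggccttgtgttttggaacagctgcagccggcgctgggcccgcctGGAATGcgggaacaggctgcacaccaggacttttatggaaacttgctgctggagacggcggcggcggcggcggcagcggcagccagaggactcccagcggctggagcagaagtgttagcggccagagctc

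ANKRD1 and MYPN each held 2 copies and FLNC and NEXN 1. Counted from the start, the first bases were at -220 and -128 in ANKRD1, -197 and -53 in MYPN, -103 in FLNC and -80 in NEXN. Of the other motifs searched on both strands, the E-box CANNTG was in 68.7% of all promoters and in those of ACTN2, ANKRD1, MYOZ2, MYPN and NEXN. TATAAA was in 11.5% of promoters and in MYPN, the CArG box in 1.29% and in LDB3, and the MEF2 site in 2.99% and in MYOZ2. The GATA site AGATAA was in 10.3% of promoters and in ANKRD1. GC content ran from 41.7% in MYPN and MYOZ2 to 83.3% in FLNC, around a median of 58.7% over all promoters. A match is a description of the letters, and no binding was measured here.

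Alpha-actinin-2 and filamin C crosslink actin. ACTN2 (ENSG00000077522, GRCh38 chr1:236664141-236764631, plus strand) had a Day 12 FPKM of 69.9 and 58.9 for NP-IWP2, 75.2 and 69.7 for P-DF, and 32.8 and 71.5 for P-IWP2. Its Day 16 FPKM was 78.9 and 53.0 for NP-IWP2, 188 and 160 for P-DF, and 184 and 192 for P-IWP2. The 4 passaged libraries of Day 16 were the highest of the 12, and static libraries of the 2 days overlapped. Against NP-IWP2 on Day 16, the log2 fold change was 1.62 (SE 0.40, edgeR adjusted p = 0.0258) for P-DF and 1.78 (SE 0.40, adjusted p = 0.0171) for P-IWP2.

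FLNC (ENSG00000128591, chr7:128830406-128859274, plus strand) encodes the filamin of striated muscle. Its Day 12 FPKM lay between 104 and 128 in all 6 libraries, the narrowest range of the 10 genes as a ratio of highest to lowest. On Day 16 it was 142 and 104 for NP-IWP2, 208 and 151 for P-DF, and 183 and 305 for P-IWP2. Both passaged groups were above static culture, with replicate 6 of P-IWP2 highest. The log2 fold change of P-IWP2 was 1.27 (SE 0.31, edgeR adjusted p = 0.0236). That of P-DF was 0.77 (SE 0.31, adjusted p = 0.121, or 0.0325 without the library that stood apart).

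The PDZ and LIM domain protein of LDB3 (ENSG00000122367, chr10:86666785-86736072, plus strand) binds alpha-actinin. Its FPKM on Day 16 was 62.7 and 56.1 for NP-IWP2, 117 and 102 for P-DF, and 112 and 98.1 for P-IWP2, after 49.1 and 41.3, 63.8 and 64.7, and 17.0 and 61.1 on Day 12. All 4 passaged libraries of Day 16 were above the other 8. The log2 fold changes on Day 16, 1.11 (SE 0.49) for P-DF and 1.09 (SE 0.49) for P-IWP2, did not pass edgeR's threshold with all libraries (adjusted p = 0.157 and 0.153) and did without replicate 5 of Day 12 P-IWP2 (adjusted p = 3.83e-05 and 4.32e-05). LDB3 shares 16.37% of its exon bases with another gene model on the same strand, which had at most 2 counts per library.

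NEXN (ENSG00000162614, chr1:77888513-77943895, plus strand) followed LDB3 more closely than any other member did, with r = 0.97 over the 12 libraries. Its Day 16 FPKM was 93.8 and 65.9 for NP-IWP2, 153 and 134 for P-DF, and 135 and 158 for P-IWP2. P-DF was already apart from NP-IWP2 on Day 12, at 106 and 118 against 82.8 and 72.1, while P-IWP2 had 34.1 and 101. The Day 16 log2 fold changes were 1.06 (SE 0.46, edgeR adjusted p = 0.146) for P-DF and 1.15 (SE 0.46, adjusted p = 0.114) for P-IWP2, and both were called without the library that stood apart (adjusted p = 0.000647 and 0.000363).

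MYPN (ENSG00000138347, chr10:68087897-68212017, plus strand), one of the genes with a pair of CATTCC copies, tethers nebulette and alpha-actinin at the Z-disc, and it had by far the lowest FPKM of the 10, resting on 181 to 788 counts per library. Its Day 16 FPKM was 1.26 and 1.75 for NP-IWP2, 4.70 and 5.06 for P-DF, and 5.14 and 4.81 for P-IWP2. On Day 12 the values were 2.25 and 2.08, 3.18 and 3.42, and 1.37 and 2.85. It was the one member with both Day 16 static libraries below both Day 12 static libraries. Its Day 16 log2 fold changes of 1.94 (SE 0.33) for P-DF and 2.01 (SE 0.33) for P-IWP2 had the lowest adjusted p of the members, 0.00608 and 0.00504 in edgeR. The P-IWP2 call held in all 12 fits that left out 1 library, and the P-DF call in 10 of 12.

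MYOZ2 (ENSG00000172399, chr4:119135832-119187789, plus strand) binds calcineurin at the Z-disc. It had a Day 12 FPKM of 70.1 and 64.1 for NP-IWP2, 122 and 89.2 for P-DF, and 33.0 and 119 for P-IWP2. On Day 16 the FPKM was 124 and 80.2, 295 and 321, and 273 and 361 in the same order, so that all 4 passaged libraries were above both static ones. The log2 fold change was 1.81 (SE 0.55, edgeR adjusted p = 0.0536) for P-DF and 1.91 (SE 0.55, adjusted p = 0.0427) for P-IWP2. The call in P-IWP2 was lost in 10 of the 12 fits with 1 library left out, and both comparisons were called without replicate 5 of Day 12 P-IWP2 (adjusted p = 7.70e-05 and 5.21e-05).

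TCAP (ENSG00000173991, chr17:39665349-39666554, plus strand) had a Day 12 FPKM between 8.13 and 22.7 in all 6 libraries. On Day 16 it was 79.6 and 28.1 for NP-IWP2, 172 and 138 for P-DF, and 146 and 155 for P-IWP2. All 6 libraries of Day 16 were above all 6 of Day 12, and the static pair differed by more than the passaged pairs. The Day 16 log2 fold change was 1.73 (SE 0.56, edgeR adjusted p = 0.0651) for P-DF and 1.74 (SE 0.56, adjusted p = 0.0606) for P-IWP2, and both were called without the library that stood apart (adjusted p = 0.00245 and 0.00227).

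Of the stretch-sensing genes, CSRP3 (ENSG00000129170, chr11:19182030-19210571, minus strand) had the widest range, with 44.2 times between its lowest and highest library. Its Day 12 FPKM was 21.1 and 16.4 for NP-IWP2, 77.6 and 40.5 for P-DF, and 16.1 and 73.5 for P-IWP2. The Day 16 values were 142 and 28.1 for NP-IWP2, 458 and 439 for P-DF, and 453 and 712 for P-IWP2. Both passaged groups were apart from static culture, and static replicate 1 was well above replicate 2. The log2 fold change was 2.59 (SE 0.86, edgeR adjusted p = 0.0729) for P-DF and 3.03 (SE 0.88, adjusted p = 0.0438) for P-IWP2, the highest of the 10 in each comparison. It ran from 1.83 to 4.28 for P-DF and from 2.27 to 4.72 for P-IWP2 over the libraries left out, with both ends set by the static libraries of Day 16. The P-IWP2 call held in 3 of 12 fits with 1 library left out. Without replicate 5 of Day 12 P-IWP2, the adjusted p was 0.00331 for P-DF and 0.00126 for P-IWP2.

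ANKRD1 (ENSG00000148677, chr10:90912096-90921087, minus strand), the other gene with a pair of CATTCC copies, was the most abundant member in every group by mean FPKM. On Day 12 it had 317 and 228 for NP-IWP2, 433 and 300 for P-DF, and 99.5 and 342 for P-IWP2. On Day 16 it had 920 and 380 for NP-IWP2, 743 and 605 for P-DF, and 1015 and 2226 for P-IWP2. P-DF lay within the range of static culture, and P-IWP2 lay above both other groups with its own 2 libraries far apart. The log2 fold change against NP-IWP2 was 0.26 (SE 0.66, 95% interval -1.22 to 1.74, edgeR adjusted p = 0.821) in P-DF, and it was -0.27 when static replicate 2 of Day 16 was left out. In P-IWP2 it was 1.59 (SE 0.67, adjusted p = 0.131, or 0.0105 without the library that stood apart).

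DES (ENSG00000175084, chr2:219418377-219426735, plus strand) was the one member with both P-DF libraries below both static ones on Day 12. Its FPKM was 35.2 and 43.5 for NP-IWP2, 18.5 and 11.2 for P-DF, and 44.5 and 16.5 for P-IWP2. On Day 16 the FPKM was 87.2 and 82.0 for NP-IWP2, 137 and 122 for P-DF, and 216 and 343 for P-IWP2. P-DF was above static culture without overlap on Day 16, the reverse of Day 12, and P-IWP2 was above both. The Day 12 log2 fold change of P-DF was -1.31 (SE 0.40, edgeR adjusted p = 0.104, or 0.00255 without replicate 5 of Day 12 P-IWP2). On Day 16 it was 0.84 (SE 0.40, adjusted p = 0.178, or 0.0178) for P-DF and 2.01 (SE 0.41, adjusted p = 0.0115) for P-IWP2. An antisense gene model overlaps 4.18% of the DES exon bases and had 2 to 23 counts per library.

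On Day 12 as a whole, none of the members passed the test. The edgeR count was 0 for P-DF against NP-IWP2, where 4.01% of all genes were called. At an unadjusted p under 0.05 it was 1 (DES), beside 21.7% of all genes. DESeq2 called 1, beside 8.22%, and limma on log2(FPKM + 1) called 0, beside 5.53%. The median log2 fold change was 0.55, and LDB3, NEXN, MYPN, MYOZ2, CSRP3 and FLNC had both P-DF libraries above both static ones, as 24.6% of all genes did. The CSRP3 log2 fold change was 1.75 (SE 0.85). For P-IWP2 against NP-IWP2 the counts were 0 in edgeR, 0 at an unadjusted p under 0.05, 0 in DESeq2 and 0 in limma. Of all genes, 1.66%, 11.5%, 3.26% and 2.82% passed in the same order.

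The Day 12 result depended on the pair of P-IWP2 libraries of that day. For P-DF, leaving out replicate 6 called the same members as leaving out replicate 5. Without it, 6 members were called for P-DF, namely LDB3, NEXN, MYPN, MYOZ2 and CSRP3 as higher and DES as lower, where 23.0% of all genes were called. For P-IWP2, 4 were then called, LDB3, MYOZ2 and CSRP3 as higher and DES as lower, where 16.0% of all genes were. The CSRP3 log2 fold change of P-IWP2 moved from 1.31 to 2.06 and that of DES from -0.43 to -1.16. With replicate 6 left out in place of replicate 5, they were -0.35 and 0.05, and 5 members were called for P-IWP2, all of them lower, where 14.7% of all genes were called. These were LDB3 at -1.54, NEXN at -1.32, MYOZ2 at -1.15, ACTN2 at -1.11 and MYPN at -0.79. All 10 members had opposite signs in the P-IWP2 comparison under the 2 choices, so that its direction on Day 12 rests on which library is kept.

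The effect of adding IWP2 to passaged cells was then tested. P-IWP2 against P-DF gave 0 called members on Day 12 and 0 on Day 16 in edgeR, where 0% of all genes were called on either day. DESeq2 and limma also called 0 members on both days. Of all genes, DESeq2 called 0.887% on Day 12 and 0.574% on Day 16, and limma 0% and 0.00513%. At an unadjusted p under 0.05, 0 members passed on Day 12 and 1, DES, on Day 16, beside 10.6% and 8.03% of all genes. On Day 16 both P-IWP2 libraries were above both P-DF ones for ANKRD1 and DES, as they were in 18.2% of all genes. The log2 fold change was 1.34 (SE 0.67, 95% interval -0.17 to 2.84) for ANKRD1 and 1.17 (SE 0.40, 95% interval 0.28 to 2.06) for DES, with edgeR adjusted p = 0.662 and 0.503. Without the Day 12 library that stood apart, DES was called (adjusted p = 0.0277), where 2.58% of all genes were called on Day 16 and 0% on Day 12. With replicate 6 of Day 12 left out instead, 7 members were called on Day 12, DES as higher and ACTN2, LDB3, NEXN, MYPN, MYOZ2 and ANKRD1 as lower, where 30.5% of all genes were called. The other 8 genes had overlapping P-DF and P-IWP2 libraries on Day 16.

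Day 16 was then compared with Day 12 within each treatment. In P-IWP2 all 10 were called as higher on Day 16, where 27.0% of all genes were called in either direction, with a median log2 fold change of 2.32 and a range from 1.47 for NEXN to 4.05 for CSRP3. Without replicate 5 of Day 12, all 10 remained called (25.1% of all genes) and the median was 1.71. The count was 3 without replicate 6 of Day 16 P-IWP2, and it was 0, as for all genes, when edgeR was fitted to these 2 groups alone. In P-DF, 4 were called, DES at 3.38 (SE 0.43, edgeR adjusted p = 0.00212), TCAP at 3.33 (SE 0.60, adjusted p = 0.00902), CSRP3 at 3.18 (SE 0.88, adjusted p = 0.0442) and ACTN2 at 1.52 (SE 0.39, adjusted p = 0.0351), beside 13.6% of all genes. All 10 had both Day 16 P-DF libraries above both Day 12 ones, as did 18.2% of all genes. Without the library that stood apart, 9 were called, all but ANKRD1, and 30.8% of all genes.

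In static culture 0 members were called between the days in edgeR, beside 1.98% of all genes. DESeq2 called 2 (5.60% of all genes) and limma 0 (4.51%), and 3 passed at an unadjusted p under 0.05, beside 19.7% of all genes. In 6 genes, LDB3, MYOZ2, TCAP, CSRP3, ANKRD1 and DES, both Day 16 libraries were above both Day 12 ones, as in 24.0% of all genes. The log2 fold changes of the last 4 were 2.03 (SE 0.58), 2.34 (SE 0.86), 1.39 (SE 0.67) and 1.22 (SE 0.40). With static replicate 1 of Day 16 left out they were 1.01 for TCAP, 0.64 for CSRP3 and 0.54 for ANKRD1. That of MYPN was -0.42 (SE 0.33). Without the library that stood apart, 7 were called, with LDB3, MYOZ2, TCAP, CSRP3, ANKRD1 and DES higher and MYPN lower, beside 18.3% of all genes.

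Whether the change between the days itself differed by treatment was tested as an interaction. For P-DF against NP-IWP2, 0 members were called in edgeR, 1 in DESeq2, 0 in limma and 3 at an unadjusted p under 0.05, beside 0.482%, 2.57%, 1.04% and 12.4% of all genes. For P-IWP2 the counts were 0, 3, 0 and 4, beside 1.84%, 7.31%, 2.91% and 20.9%. The interaction was 2.16 (SE 0.57, adjusted p = 0.150) for DES for P-DF and 2.45 (SE 0.57, adjusted p = 0.0615) for P-IWP2. For MYPN it was 1.24 (SE 0.46, adjusted p = 0.298) and 2.03 (SE 0.46, adjusted p = 0.0593). For ACTN2 it was 1.36 (SE 0.55, adjusted p = 0.345) and 2.06 (SE 0.55, adjusted p = 0.0854). Without replicate 5 of Day 12 P-IWP2, these 3 genes and no other member were called in both interactions, where 8.09% and 8.33% of all genes were called. With replicate 6 left out in its place, all 10 were called in the P-IWP2 interaction, where 31.1% of all genes were.

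The order of the genes by level changed along with their amounts. In NP-IWP2 on Day 12, the mean FPKM ran from ANKRD1 at 273 through FLNC (107), NEXN (77.4), MYOZ2 (67.1), ACTN2 (64.4), LDB3 (45.2), DES (39.4), CSRP3 (18.7) and TCAP (14.5) to MYPN (2.17). Among neighbours in that order, MYOZ2 and ACTN2 overlapped, as did LDB3 and DES. In P-DF on Day 16, ANKRD1 (674) was followed by CSRP3 (448) and MYOZ2 (308), each apart from the next, and FLNC (180), ACTN2 (174), TCAP (155), NEXN (143) and DES (130) overlapped from one to the next. LDB3 (109) and MYPN (4.88) came last. In P-IWP2 on Day 16 the first 3 places were the same and DES came next, overlapping MYOZ2 and FLNC. In NP-IWP2 on Day 16, CSRP3 (85.2, from libraries of 142 and 28.1) was at place 4, overlapping its neighbours. From NP-IWP2 on Day 12 to the passaged groups on Day 16, CSRP3 moved from near the end to the place behind ANKRD1. That step changes day and treatment together.

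The samples also differed in the cells they held. On Day 16 the summed FPKM of 10 cardiomyocyte markers, none of them a member, was 5266 to 8316 for NP-IWP2, 11623 to 13486 for P-DF and 13450 to 17876 for P-IWP2. In edgeR, PLN and MYL7 were called higher in both passaged groups, RYR2 for P-DF and TPM1 for P-IWP2. MYH6 was called lower in both. Of all genes, 15.3% were called for P-DF and 17.1% for P-IWP2, in either direction. Without replicate 5 of Day 12 P-IWP2, more of these 10 markers were called in both comparisons, as were more of all genes. The 6 hepatic and endoderm markers summed to 612 to 742 for NP-IWP2, 0.08 to 0.29 for P-DF and 0.09 for P-IWP2, where HNF4A was at 0 in both passaged groups. The 6 fibroblast and stroma markers summed to 1179 to 1217, 19.7 to 24.5 and 28.9 to 29.9, and the 6 epicardial markers to 69.6 to 99.2, 0.70 to 0.84 and 0.30 to 0.43. The 6 endothelial markers summed to 53.6 to 54.1, 14.8 to 16.8 and 12.2 to 14.6.

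Both other muscle lineages were examined because several members are also used there. The 6 smooth muscle markers summed to 210 to 436 for NP-IWP2, 232 to 340 for P-DF and 298 to 900 for P-IWP2 on Day 16, groups that overlapped. Single markers differed in edgeR, with ACTA2 called lower for P-DF (log2 fold change -2.89, adjusted p = 0.0328). CNN1 was called higher for P-IWP2 (2.45, adjusted p = 0.0218), and no other marker of this list was called. Of all genes, 15.3% and 17.1% were called. The 900 came from P-IWP2 replicate 6, which also had the highest FPKM of ACTN2, FLNC, NEXN, MYOZ2, CSRP3, ANKRD1 and DES of all 12 libraries, and the part of smooth muscle cells in those values was not tested. The 6 skeletal muscle markers summed to at most 0.43 in any library, with MYF5 at 0 in all 12. On Day 12, the fibroblast and stroma sum was 673 and the epicardial sum 140 in P-IWP2 replicate 5, against 31.6 and 0.76 in replicate 6. Not every marker followed its sum, LUM being at -7.65 and UPK3B at -4.18 in log2 fold change against NP-IWP2 with both libraries. The cardiomyocyte sum was 3720 in replicate 5 and 8512 in replicate 6, and the endothelial sum 22.9 and 236. The part of any of these cells in the members' values of replicate 5 was not tested.

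To set the members against the cardiomyocyte content, each was expressed relative to the mean log2 CPM of the 10 cardiomyocyte markers of its own library. That mean was itself higher by 0.86 for P-DF and 1.01 for P-IWP2 than for NP-IWP2 on Day 16. It includes MYH6, whose log2 fold change was -2.02 for P-DF and -1.56 for P-IWP2. MYH6 thus lowers the mean in passaged libraries and raises the members relative to it, and the measure was not computed without MYH6. Relative to the mean of all 10 markers, the members differed from static culture by a median of 0.53 for P-DF and 0.87 for P-IWP2. These are on the log2 scale and compare with 1.36 and 1.76 in the edgeR fit. In each comparison 7 of 10 members were above static culture without overlap on this scale, as were 3.44% of all genes for P-DF and 2.50% for P-IWP2. CSRP3 was highest, at 2.20 for P-DF and 2.43 for P-IWP2. For LDB3 for P-IWP2 the difference was 0.09, and for P-DF it was -0.08 for FLNC, -0.01 for DES and -0.44 for ANKRD1.

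Between the days, the same measure was higher on Day 16 for 9 of 10 members in NP-IWP2, the exception being MYPN, and for all 10 in both passaged groups. Its median was 0.56 for NP-IWP2, 1.00 for P-DF and 1.31 for P-IWP2, the last 1.24 without replicate 5 of Day 12. In P-DF on Day 12 it was centred on -0.01, with DES lowest at -1.92 and CSRP3 highest at 1.12. These are descriptions of 2 libraries per group without a test. Among the markers, MYH6 had log2 fold changes between the days of -1.70 for NP-IWP2, -3.98 for P-DF and -2.99 for P-IWP2. This lowers the marker mean on Day 16 and raises the members relative to it, most in P-DF.

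**Figure D3:**
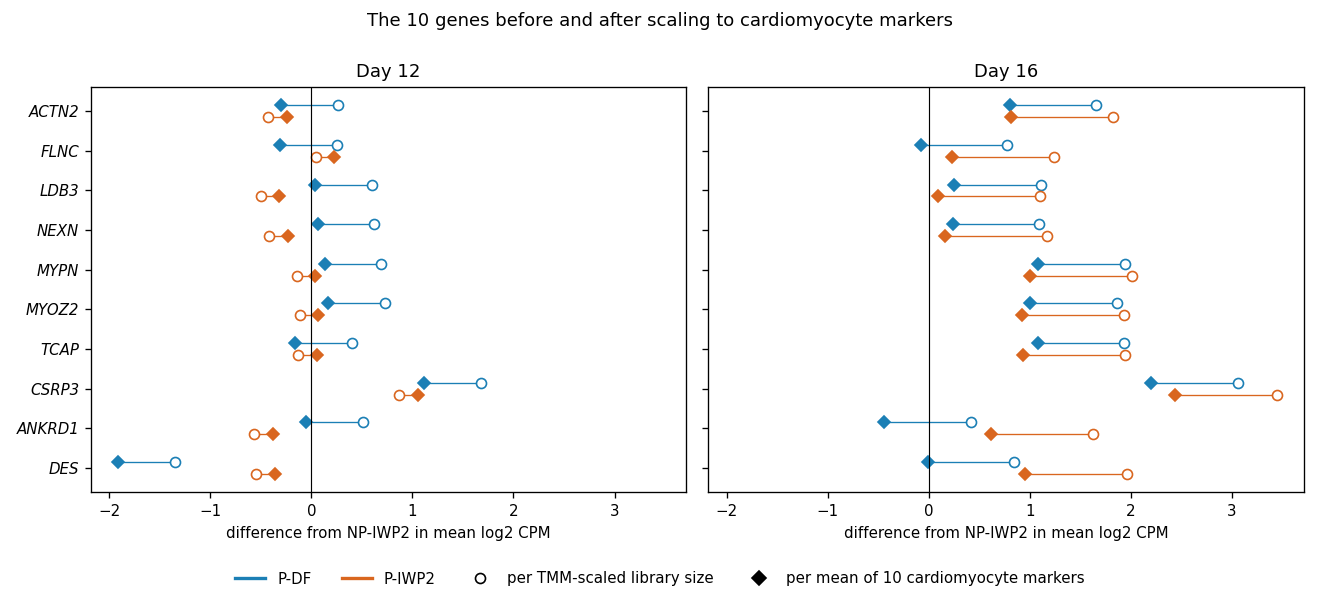
Difference of each passaged group from NP-IWP2 in mean log2 CPM on the horizontal axis, per TMM-scaled library size (open circles) and relative to the mean of 10 cardiomyocyte markers in the same library (filled diamonds), on Day 12 and Day 16. On Day 16 the diamonds lie to the left of the circles for all 10 genes, with CSRP3 farthest right at 2.20 and 2.43, and FLNC, DES and ANKRD1 of P-DF at or below 0.

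Several members have a close relative that is used outside striated muscle, and the ratio within a library does not depend on its depth. The FPKM ratio of ACTN2 to ACTN4, a non-muscle alpha-actinin, was 1.29 and 1.10 in static culture on Day 16, 6.45 and 7.35 for P-DF, and 7.33 and 4.17 for P-IWP2. FLNC to FLNA, the broadly expressed filamin, was 1.39 and 1.04 in static culture and between 6.92 and 8.30 in the 4 passaged libraries. The ratio of CSRP3 to CSRP2, which is known from smooth muscle, was 3.22 and 0.623, then 10.2 and 9.57, then 9.25 and 9.20. In all of these the passaged libraries were apart from the static ones.

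DES was set against VIM, the intermediate filament of mesenchymal cells. Their FPKM ratio was between 0.199 and 0.309 in all 6 libraries of Day 12. On Day 16 it was 0.353 and 0.313 for NP-IWP2, 1.24 and 0.953 for P-DF, and 1.73 and 2.79 for P-IWP2. The static libraries were just above the Day 12 range and the passaged ones were about or above 1. FLNA was called lower in P-DF on Day 16 (log2 fold change -1.83, edgeR adjusted p = 0.0217), as was VIM (-0.86, adjusted p = 0.0446), while FLNC and DES were not called there. Of 16 relatives tested, 2 were called higher and 2 lower for P-DF on Day 16, where 15.3% of all genes were called in either direction. For P-IWP2, 2 were called higher, where 17.1% of all genes were called. With replicate 5 of Day 12 P-IWP2 left out, more relatives were called in both comparisons, as were more of all genes. A ratio shows unequal change and not which gene moved. On Day 12 the FLNC to FLNA ratio of P-DF was already apart, at 2.36 and 1.894 against 1.195 and 1.075 in static culture. So were ACTN2 to ACTN4, at 1.567 and 1.352 against 1.034 and 0.918, and CSRP3 to CSRP2, at 1.928 and 1.118 against 0.489 and 0.375. In P-IWP2 each of these ratios overlapped static culture, FLNC to FLNA being at 0.599 and 2.274. The part of stromal cells in these ratios was not tested. MYPN to its relative PALLD ranged from 0.014 to 0.049, so the more abundant partner was PALLD in every library. On Day 16 this ratio was 0.014 and 0.027 in static culture, 0.039 and 0.047 for P-DF, and 0.049 and 0.042 for P-IWP2.

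**Figure D4:**
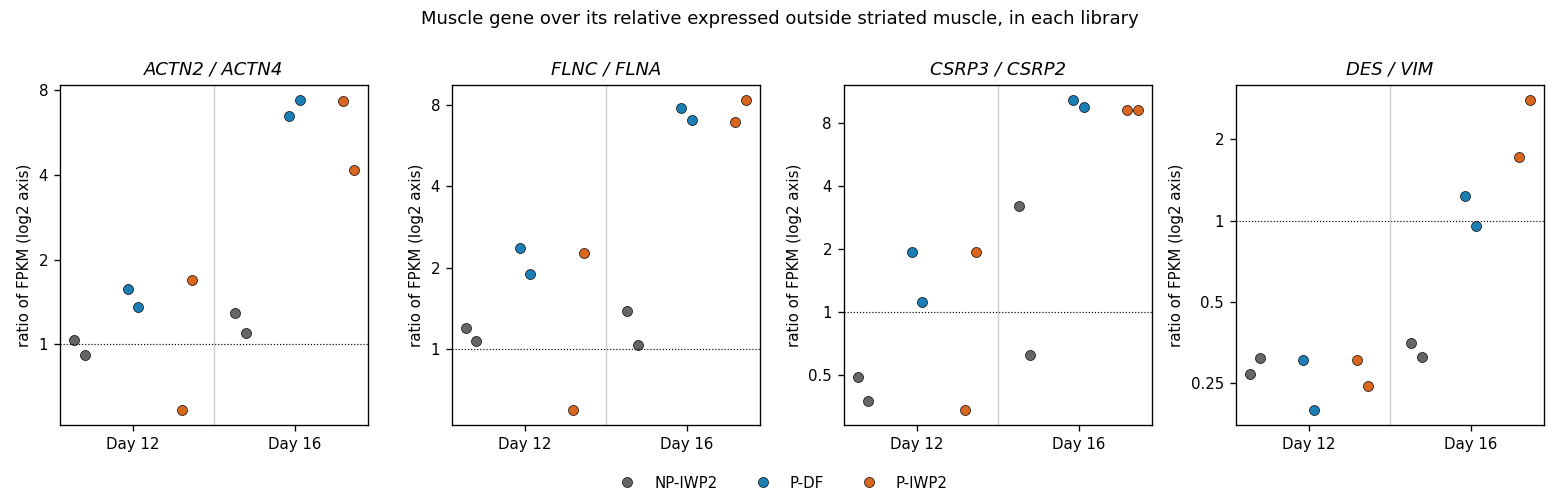
Ratio of FPKM of the muscle gene to its relative on a log2 vertical axis, by day, with a point per library coloured by treatment and a dotted line at 1. On Day 16 the 4 passaged libraries lie above the 2 static ones in each of the 4 panels, with DES over VIM at 0.953 to 2.79 against 0.313 and 0.353.

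Other genes of the Z-disc and of the costamere, the attachment of the Z-disc to the cell membrane, were read from a list of 30, of which 28 could be tested. On Day 16, 7 were called higher for P-DF and 8 for P-IWP2 and none lower, where 5.39% and 7.15% of all genes were called higher, with median log2 fold changes of 0.92 and 1.06. Without replicate 5 of Day 12 P-IWP2 the called genes were 21 higher and 1 lower for P-DF and 20 higher for P-IWP2, where 15.3% and 17.1% of all genes were called higher. CAVIN4, which organises caveolae and T-tubules in muscle, had 3.02 (SE 0.26) and 2.84 (SE 0.26). XIRP2, an actin-binding Xin repeat protein, had 2.16 (SE 0.60) and 2.54 (SE 0.59). CRYAB, the small heat shock protein that protects desmin and titin, had 2.03 (SE 0.44) and 2.38 (SE 0.45), and the giant spring protein TTN 1.26 (SE 0.33) and 1.33 (SE 0.33), all of them called in both.

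ANKRD1 is also a common reporter of YAP, a coactivator of the Hippo pathway that responds to cell spreading and tension, and of its TEAD partners. A list of 22 other targets of these factors was read beside it. On Day 16, 8 were called lower and 1 higher for P-DF, and 6 lower and 1 higher for P-IWP2, where 9.86% and 9.95% of all genes were called lower, with median log2 fold changes of -0.62 and -0.57. Without replicate 5 of Day 12 P-IWP2, 13 were lower for P-DF and 11 for P-IWP2 and 1 higher in each, where 18.8% and 19.3% of all genes were lower. The genes called lower in both included IGFBP3 (-3.77, SE 0.48, and -3.07, SE 0.47), F3, which encodes tissue factor (-3.25, SE 0.28, and -2.90, SE 0.27), FJX1 (-3.46, SE 0.78, and -3.22, SE 0.76) and TGFB2 (-2.99, SE 0.39, and -1.76, SE 0.37). The one called higher was the LIM protein gene AJUBA (0.66 and 0.81), named after its values were seen. The markers of stromal and epicardial cells given above moved the same way as the genes called lower, and their part in this was not tested.

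Across the 12 libraries, the members correlated with each other as a description, the libraries sharing day and treatment. Over the 45 pairs, Pearson's r of log2 CPM ran from 0.49 for MYPN and DES to 0.98 for ACTN2 and MYOZ2, with a median of 0.89. MYOZ2 had the highest r with the mean of the other members, 0.99, and DES the lowest, 0.72, followed by MYPN at 0.83. Outside the members, the 10 genes closest to their mean were PPP1CB (r = 0.99), PYGB, DAAM1, YWHAQ, RBBP7, CNOT11, MSRB3, CYB5R3, ATP6V1E1 and VAMP7. PPP1CB, a catalytic subunit of protein phosphatase 1, had an FPKM of 36.4 to 51.0 on Day 12, 47.1 and 49.0 in static culture on Day 16, and 62.7 to 72.9 in the passaged libraries.

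Gene by gene, the closest other gene was PYGB for ACTN2, TPM2 for FLNC, STYXL2 for LDB3, MYO18B for NEXN, TANGO2 for MYPN, YWHAQ for MYOZ2, SYNPO2L for TCAP, CYP2J2 for CSRP3, LOXL2 for ANKRD1 and SNAP23 for DES. These r values ran from 0.979 to 0.997. Several are sarcomere or muscle genes, such as TPM2 for a tropomyosin, MYO18B for an unconventional myosin of the sarcomere, and SYNPO2L for a Z-disc protein.

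**Figure D5:**
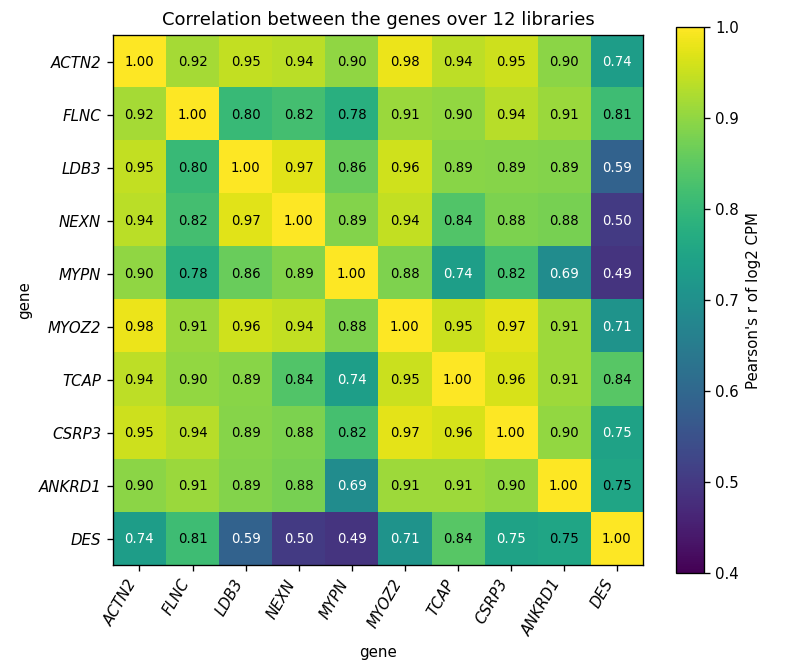
Pearson's r of log2 CPM between each pair of the 10 genes over the 12 libraries, with genes on both axes and r written in each cell. The row of DES is the darkest, from 0.49 with MYPN to 0.84 with TCAP.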

How the data were processed

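Bulk RNA-seq of 12 libraries was read from the deposited tables of read counts per gene and FPKM. According to the submitters' processing notes, the authors used cutadapt 1.9.1, HISAT2 2.0.1, HTSeq 0.6.1 and hg38, and cDNA was made with a low-input amplification kit. The strand setting of the counting is not given in the sources used here. The deposited FPKM equalled count per exon length and total count within 0.005. Groups came from the labels. Counts were fitted with edgeR 4.0.16 in R 4.3.3 (TMM, filterByExpr, quasi-likelihood test, 6 groups in 1 model, Benjamini-Hochberg over 19505 genes, threshold 0.05). DESeq2 1.42.0, limma 3.58.1 on log2(FPKM + 1), other scalings, no filter, only the groups compared, a replicate block and leaving out each library were alternatives. The fit was tested on simulated counts. Log2 CPM used a prior count of 2. The named genes are all 10 members and, per list, up to 4 genes called in most of the passaging comparisons, with close relatives and the genes most like the members. Members and lists were chosen with earlier results of these data known. Correlations and marker sums are descriptions.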

Additional observations from a re-analysis of the deposited data

How the results depend on the processing

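With 2 libraries per group, the calls depended on which libraries entered the shared estimate of the spread. The 110 member fold changes and the differences relative to the cardiomyocyte markers gave 2080 values under the alternatives. Of these, 192 became and 83 ceased to be called, and 38 reversed. Another 1722 kept direction and side of the threshold or, relative to the markers, moved by less than the SD between replicates. The other 45 were values relative to the markers, which have no threshold, and moved by that SD or more. Called members are given below in the order P-DF on Day 12 (0) and Day 16 (2) and P-IWP2 on Day 12 (0) and Day 16 (6) against NP-IWP2, P-IWP2 against P-DF on Day 12 (0) and Day 16 (0), Day 16 against Day 12 in NP-IWP2 (0), P-DF (4) and P-IWP2 (10), and the interactions of P-DF (0) and P-IWP2 (0) with day. Without the filter on low counts they were 6, 9, 1, 10, 5, 2, 5, 10, 10, 6 and 10. DESeq2 gave 1, 5, 0, 8, 0, 0, 2, 6, 10, 1 and 3. It called 8.22%, 18.4%, 3.26%, 20.1%, 0.887%, 0.574%, 5.60%, 16.3%, 28.5%, 2.57% and 7.31% of all genes. With only the groups compared, edgeR gave 6, 9, 0, 9, 0, 1, 6, 10 and 0, and no interaction could be had. The shares of all genes were then 28.1%, 35.8%, 0%, 26.2%, 0%, 1.69%, 26.0%, 32.2% and 0%. Shares are not given for the fits without the filter or with a replicate block. For single libraries left out, they are given above only for replicates 5 and 6 of Day 12 P-IWP2. Size factors of DESeq2 and total counts in edgeR, and limma on log2(FPKM + 1), left every count within 1.5 times. The cause was not tested.

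Leaving out 1 library at a time, the ranges in the same order were 0 to 6, 0 to 9, 0 to 5, 1 to 10, 0 to 7, 0 to 1, 0 to 7, 1 to 9, 3 to 10, 0 to 3 and 0 to 10. The highest counts came without replicate 5 or 6 of Day 12 P-IWP2. Leaving out any of the other 10 libraries gave 0, 0 to 2, 0, 1 to 5, 0, 0, 0, 1 to 4, 3 to 9, 0 and 0. The P-DF count on Day 16 was 0 without replicate 4 of that group, the P-IWP2 count on Day 16 was 1 without static replicate 2 of Day 16 or replicate 6 of P-IWP2, and the P-IWP2 count between the days was 3 without that replicate 6. The 38 reversals lay in 21 fold changes. Over the libraries left out, ANKRD1 for P-DF on Day 16 ran from -0.27 to 1.11. For P-IWP2 against NP-IWP2 on Day 12, all 10 members had opposite signs without replicate 5 and without replicate 6 of that group, ACTN2 from -1.11 to 0.24, LDB3 -1.54 to 0.53, MYOZ2 -1.15 to 0.92, TCAP -0.97 to 0.68, CSRP3 -0.35 to 2.06, MYPN -0.79 to 0.49, ANKRD1 -1.59 to 0.42, FLNC -0.12 to 0.20, NEXN -1.32 to 0.48 and DES -1.16 to 0.046. For P-IWP2 against P-DF on Day 12, MYOZ2 ran from -1.90 to 0.17, TCAP from -1.40 to 0.25 and CSRP3 from -2.10 to 0.31, and on Day 16 LDB3 from -0.0999 to 0.08, MYOZ2 from -0.19 to 0.33, TCAP from -0.14 to 0.16 and NEXN from -0.0947 to 0.25. Between the days in NP-IWP2, ACTN2 ran from -0.22 to 0.46 and NEXN from -0.18 to 0.44, and the P-DF interaction of ANKRD1 from -0.79 to 0.60. Other settings reversed values near 0. For P-IWP2 against NP-IWP2 on Day 12, limma gave -0.09 for MYOZ2 and -0.0957 for TCAP, and the 2 groups alone 0.0022 for MYPN. For P-IWP2 against P-DF on Day 16, DESeq2 and its size factors in edgeR gave 0.0001 for LDB3, and total counts and limma -0.0441 and -0.0358 for TCAP.

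Replicate numbers are shared across the days only. Deviations of same-numbered libraries from their group means correlated at 0.0754 (NP-IWP2), -0.00154 (P-DF) and -0.031 (P-IWP2) over 19505 genes. With 2 libraries per group, this cannot settle whether same-numbered libraries came from the same culture. With a replicate block, the called members between the days were 0, 5 and 10 and those of the interactions 0 and 0. Scaling to total counts moved the median of all genes on Day 16 to -0.25 in P-DF and -0.31 in P-IWP2 against NP-IWP2, with 10 of 10 members above that median in both.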
